A study of Homo sapiens with 6 samples.

Results

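Thrombospondins and the other matricellular proteins studied here were 10 human genes: THBS1, THBS2, THBS3, THBS4, COMP, SPP1, SPARC, TNC, POSTN and CD47. They were 10 of 11963 genes with a probe set of their own, and their 20 probe sets, among 22215 on the array that were not controls, were found by the gene symbol in the platform annotation, and no probe set listed with several genes included 1 of these symbols. A probe set is a group of short oligonucleotides on the array that reads 1 transcript or a few related ones, and the genes had between 1 probe set (THBS2, THBS3, THBS4, COMP and SPP1) and 5 (THBS1). The genes were chosen from the measured difference between the same cell lines, since earlier results of this comparison were known, so their differences and calls below are a description and carry no p-values.

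RNA came from 2 established human glioblastoma cell lines, T98G and U87MG, with 3 Affymetrix arrays for each. Both grew in the same serum-containing medium, and no treatment is given. U87MG is labelled as withstanding apoptosis from bortezomib, a proteasome inhibitor, and from the isopeptidase inhibitor G5 but as dying by necrosis under G5, whereas T98G is labelled as prone to apoptosis from either compound and as partly protected from that necrosis. Each line is a single long-cultured tumour line with no vessels, immune cells or tissue matrix around it, and the labels do not say whether its arrays came from separate cultures, so errors describe the spread between arrays, which may be technical.

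Matricellular proteins are secreted into the extracellular matrix, where they act mainly as signals and adaptors between matrix, growth factors, proteases and cell surface receptors rather than as scaffold. The thrombospondins fall into a trimeric group, THBS1 and THBS2, which inhibit angiogenesis and of which THBS1 can also activate latent TGF-beta, and a pentameric group, THBS3, THBS4 and COMP. Osteopontin (SPP1), tenascin-C (TNC) and periostin (POSTN) are ligands of integrins, SPARC binds collagen and calcium, and CD47 is a cell surface receptor for THBS1 that also signals to SIRPA on phagocytes. In gliomas tenascin-C, osteopontin, SPARC and periostin are well-known products of tumour cells or of the surrounding stroma.

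The promoters of the 5 genes that differed at least 2-fold are shown first, because the results turn on these genes. Each sequence is the 250 bases before the annotated transcript start, read 5′ to 3′ on the gene's strand, from the RefSeq promoter table of GRCh38.p14, which held all 10 genes in 12 windows. THBS1 and POSTN were lower in U87MG, with windows at chr15:39580829-39581078 (plus strand) and chr13:37598769-37599018 (minus strand). THBS2, SPP1 and TNC were higher, with windows at chr6:169253847-169254096 (minus), chr4:87975464-87975713 (plus) and chr9:115118158-115118407 (minus). Capitals mark exact matches, on either strand, to the TATA box TATAAA, the CCAAT box, the GC box GGGCGG, the TEAD site GGAATG and the AP-1 site TGANTCA, a choice of motifs made after the sequences were seen.
THBS1 promoter: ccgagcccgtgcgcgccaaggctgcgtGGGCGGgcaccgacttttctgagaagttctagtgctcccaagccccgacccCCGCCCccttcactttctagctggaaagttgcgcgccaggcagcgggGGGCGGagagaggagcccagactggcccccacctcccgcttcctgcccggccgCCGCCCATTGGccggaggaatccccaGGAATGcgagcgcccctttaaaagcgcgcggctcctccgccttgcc
POSTN promoter: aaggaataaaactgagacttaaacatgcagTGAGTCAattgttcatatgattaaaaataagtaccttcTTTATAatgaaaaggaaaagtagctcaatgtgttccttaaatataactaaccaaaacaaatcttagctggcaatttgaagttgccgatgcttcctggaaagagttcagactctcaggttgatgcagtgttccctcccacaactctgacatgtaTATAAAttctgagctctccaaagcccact
THBS2 promoter: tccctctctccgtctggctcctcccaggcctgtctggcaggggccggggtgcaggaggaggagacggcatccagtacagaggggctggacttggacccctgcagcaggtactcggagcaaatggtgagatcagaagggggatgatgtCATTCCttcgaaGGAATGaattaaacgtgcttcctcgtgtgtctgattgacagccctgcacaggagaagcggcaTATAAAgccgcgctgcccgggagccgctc
SPP1 promoter: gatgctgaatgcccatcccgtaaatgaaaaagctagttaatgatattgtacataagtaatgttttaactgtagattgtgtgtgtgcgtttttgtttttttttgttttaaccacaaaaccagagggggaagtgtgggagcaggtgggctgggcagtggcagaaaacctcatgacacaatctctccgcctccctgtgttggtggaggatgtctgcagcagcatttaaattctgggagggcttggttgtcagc
TNC promoter: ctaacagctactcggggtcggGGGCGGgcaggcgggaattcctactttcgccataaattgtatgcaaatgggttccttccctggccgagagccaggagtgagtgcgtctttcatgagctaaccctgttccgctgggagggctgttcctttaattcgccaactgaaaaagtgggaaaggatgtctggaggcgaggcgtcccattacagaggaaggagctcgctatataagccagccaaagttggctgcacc

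The exact matches differed between the 5 windows. Only exact letters were searched, so near forms were not counted, such as tatataag in the TNC window. THBS1 held 4 GC boxes, a CCAAT box on the minus strand that adjoins 1 of them, and a TEAD match ending 41 bases before the start, and its window was 69.6% G or C. THBS2 held a TATA box at 29 to 24 bases before the start and a pair of TEAD matches in opposite directions, at 103 to 98 and 91 to 86 bases. POSTN, at 36.4% G or C, held a TATA box at the same distance as that of THBS2, another on the minus strand, and an AP-1 match. SPP1 (44.8% G or C) held no exact match to the 5 motifs, and TNC (54.8%) held a single GC box as its only exact match. The median over all 35116 windows was 58.0% G or C. Of those windows 10.7% held TATAAA, 32.0% CCAAT, 42.6% GGGCGG, 11.9% GGAATG and 6.57% TGANTCA. A match is a description of letters. Promoter activity and factor binding were not measured.

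Levels below are log2 values as deposited, summarised by RMA, and a difference is U87MG minus T98G with its standard error (SE) and, in brackets, its 95% interval from a limma fit over all 22215 probe sets. Means carry the SD over 3 arrays. A probe set is referred to as called when its Benjamini-Hochberg adjusted p in that fit was under 0.05 and its difference at least 2-fold. Probe sets of different genes bind with different strength, so levels are compared between lines and not between probe sets. The 3 control probe sets without a matching transcript read 3.32 to 4.03, a range referred to below as the bottom of the scale, although the lowest deposited value was 2.90. Background differs between probe sets, so a value above 4.03 does not by itself show that a transcript is present. The 5 platelet markers, for instance, had means of 4.08 to 7.13 in T98G and 3.94 to 7.16 in U87MG. A bulk measurement cannot tell fewer cells with a transcript from less transcript per cell.

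Over all probe sets, arrays correlated at r = 0.991 to 0.997 within a line and at 0.934 to 0.938 across lines. The third U87MG array (replicate 3) stood apart by its poly-A control probe sets, whose mean was 5.30 against 6.10 to 6.84 on the other 5 arrays. Without it the same numbers of matricellular probe sets were called, 4 higher and 5 lower. Of 10 astrocyte and glioma markers 1 was called higher (the neural stem cell filament gene NES) and 2 lower (SOX9, and PDGFRA on 1 of its 3 probe sets). VIM, a filament gene of mesenchymal and glial cells, read 14.59 ± 0.05 in T98G and 14.85 ± 0.05 in U87MG, whereas S100B read 4.13 ± 0.16 and 4.23 ± 0.08, close to the bottom of the scale. The astrocyte filament gene GFAP read 6.42 ± 0.04 and 6.52 ± 0.04.

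Of the 20 probe sets, 4 were called higher in U87MG, 5 lower and 11 neither. Over all probe sets 5.93% were called higher and 6.33% lower, 12.3% in all. Since the genes were chosen with this comparison known, nothing is read from the larger share among them. The called probe sets belonged to 5 genes: THBS1 and POSTN were lower, and THBS2, SPP1 and TNC higher. Both directions occurred within the thrombospondins and within the integrin ligands. The median difference over the 20 probe sets was -0.39, as against -0.01 over all probe sets. It counts probe sets and not genes, and all 5 of THBS1 and all 4 of CD47 had negative differences. All U87MG arrays lay above all T98G arrays for 5 of the 20 and below them for 10, and the lines overlapped for the remaining 5. Of those 10, 5 belonged to THBS1 and 3 to CD47. Over all probe sets 49.1% separated the lines in this way (23.0% higher, 26.1% lower). A difference of at least 10-fold was called lower for 4 probe sets (3 of THBS1 and 1 of POSTN) and higher for 2 (SPP1 and 1 of TNC), against 0.851% and 0.716% of all probe sets.

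**Figure D1:**
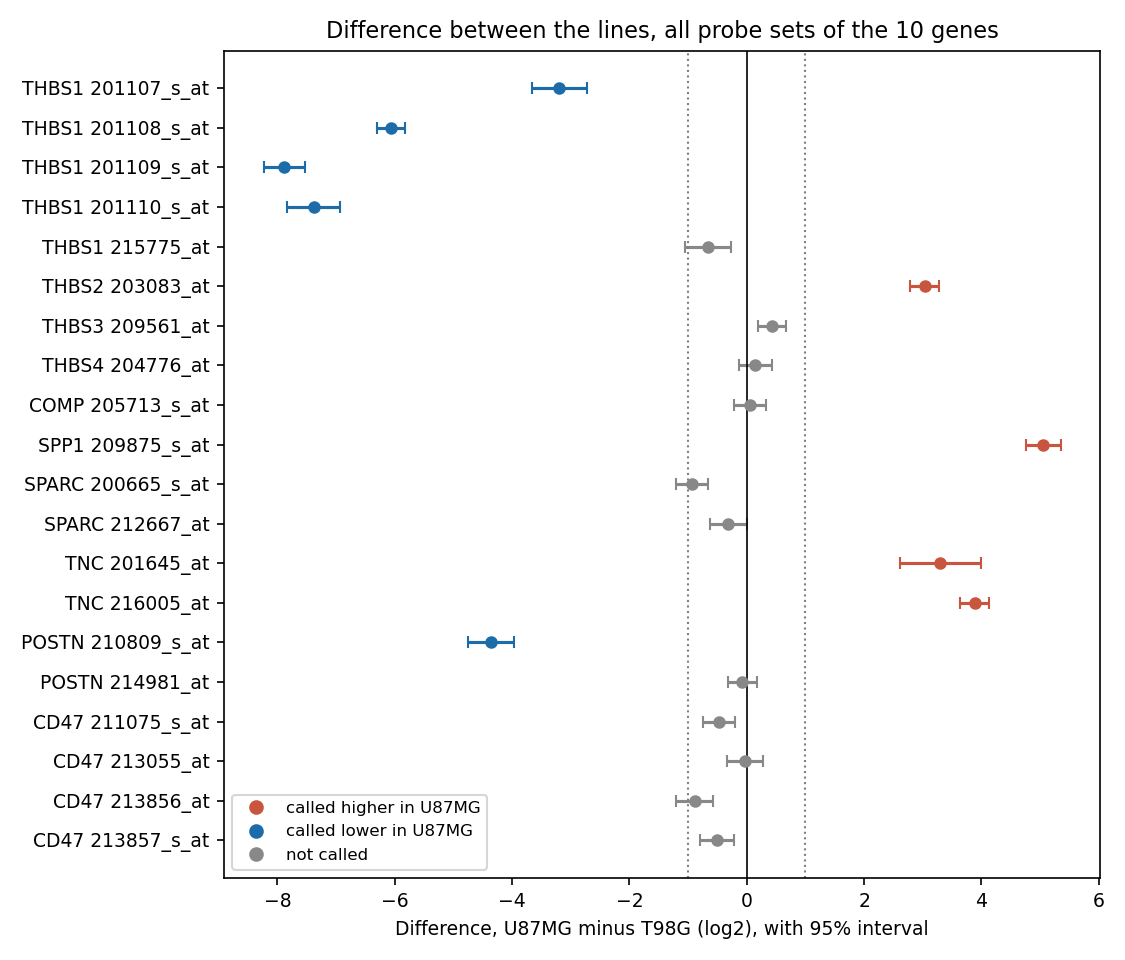
Difference between U87MG and T98G (log2, horizontal axis) for each of the 20 probe sets, with points for the estimate and bars for the 95% interval; dotted lines mark 2-fold. THBS1 spans -7.88 to -0.66 over its 5 probe sets, SPP1 lies furthest to the right at 5.05, and the probe sets of THBS3, THBS4, COMP, SPARC and CD47 all lie within 2-fold.

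THBS1, thrombospondin-1, had the largest difference of the 10 genes, and its probe sets are taken singly. Probe set 201109_s_at read 12.98, 12.91 and 12.94 in T98G and 5.07, 5.37 and 4.73 in U87MG. Its difference of -7.88 (SE 0.15, -8.23 to -7.53) corresponds to a 236-fold lower level in U87MG. The T98G arrays had an SD of 0.03, and the U87MG arrays came near the bottom of the scale without reaching it.

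Probe set 201110_s_at gave a similar picture, with 12.17, 12.03 and 11.63 in T98G and 4.74, 4.80 and 4.15 in U87MG. The difference was -7.38 (SE 0.20, -7.83 to -6.93), or 166-fold. The lowest value, that of U87MG replicate 3, was 4.15 and thus only just above the highest control at 4.03. Probe set 201108_s_at read 12.32, 12.32 and 12.20 in T98G against 6.14, 6.34 and 6.17 in U87MG. At -6.06 (SE 0.10, -6.30 to -5.83), or 66.9-fold, its difference was smaller, and its U87MG arrays lay further from the bottom of the scale. Over these 3 probe sets the T98G arrays spanned 11.63 to 12.98 and the U87MG arrays 4.15 to 6.34.

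The other THBS1 probe sets showed smaller differences in the same direction. Probe set 201107_s_at read 8.95, 9.11 and 8.34 in T98G and 5.32, 5.69 and 5.80 in U87MG, a difference of -3.19 (SE 0.21, -3.66 to -2.73), or 9.15-fold. Probe set 215775_at read 6.24, 6.21 and 5.62 in T98G and 5.50, 5.31 and 5.28 in U87MG. Its difference of -0.66 (-1.05 to -0.27) fell short of 2-fold, although the lines did not overlap on it. It was also the only 1 of the 5 whose identifier does not end in _s_at, the ending for probe sets that can match several transcripts, and without such probe sets no THBS1 call remained. All 5 probe sets separated the lines in the same direction, by between 1.58-fold and 236-fold.

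**Figure D2:**
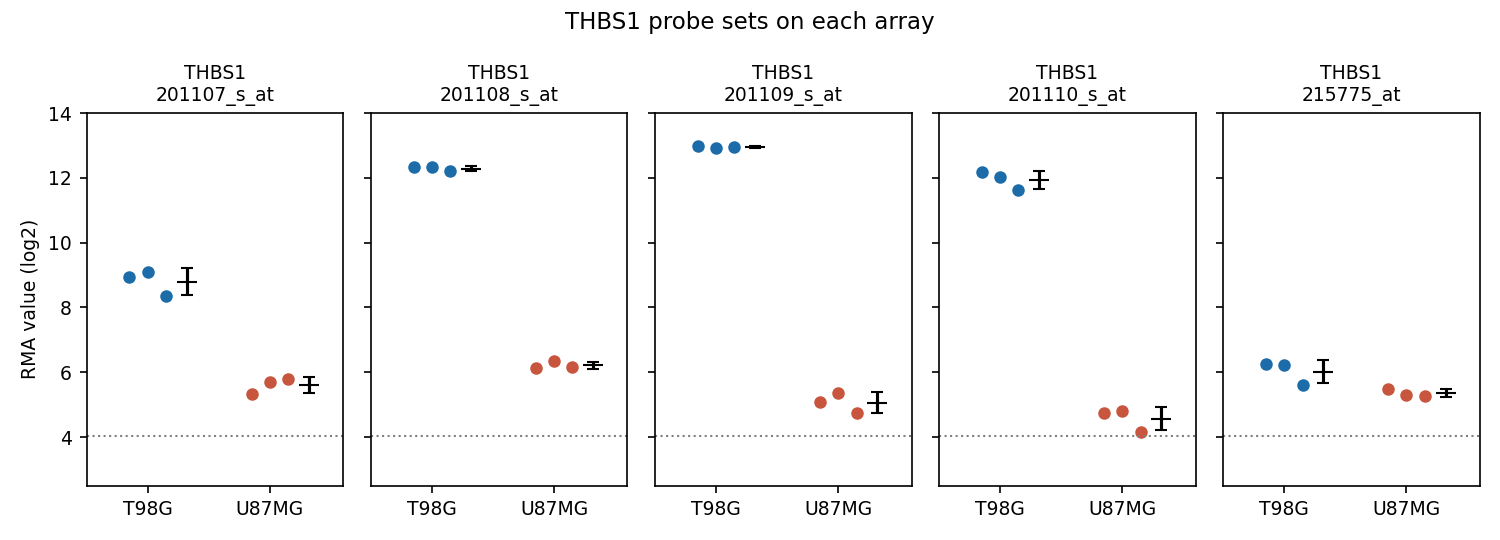
Log2 RMA values (vertical axis) of the 5 THBS1 probe sets on the 3 T98G and 3 U87MG arrays, 1 point per array, with the mean and SD beside each group and a dotted line at 4.03, the highest control without a matching transcript. The T98G points lie above the U87MG points in all 5 panels, by 7.88 on 201109_s_at and by 0.66 on 215775_at.

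THBS2, thrombospondin-2, which shares its domain layout with THBS1, went the other way. Probe set 203083_at read 5.68, 5.47 and 5.55 in T98G and 8.59, 8.72 and 8.47 in U87MG. The difference was 3.03 (SE 0.11, 2.78 to 3.28), or 8.17-fold higher in U87MG, with arrays of each line close together (SD 0.11 and 0.13). The trimeric thrombospondins thus had opposite differences between the lines, THBS1 lower and THBS2 higher in U87MG.

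The pentameric thrombospondins differed little, and none was called by limma. THBS3 read 8.51, 8.39 and 8.58 in T98G and 8.78, 9.02 and 8.96 in U87MG, so that the lines did not overlap, and its difference was 0.43 (0.18 to 0.67), or 1.35-fold. THBS4 read 7.15, 7.01 and 7.34 in T98G against 7.48, 7.23 and 7.23 in U87MG. Its arrays overlapped, with a difference of 0.14 (-0.13 to 0.42). COMP, the cartilage member of the group, read 5.03, 5.05 and 5.25 in T98G and 5.07, 5.35 and 5.08 in U87MG, which also overlapped, at 0.05 (-0.22 to 0.32). These intervals bound the difference in THBS4 or COMP readings on these probe sets to well under 2-fold, and RMA can compress the differences of dim probe sets. Whether the readings rose above the background of these probe sets was not tested, so the bound may not hold for the transcripts.

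SPP1, which encodes osteopontin, a phosphorylated ligand of integrins and CD44, had the largest difference in favour of U87MG. Probe set 209875_s_at read 7.91, 8.30 and 7.96 in T98G and 13.20, 13.17 and 12.96 in U87MG. The lowest U87MG array lay far above the highest T98G array, and the difference was 5.05 (SE 0.13, 4.75 to 5.35), or 33.2-fold. Leaving out each array in turn gave 4.98 to 5.17. SPP1 had only this probe set, whose ending is _s_at, so its call too is lost where probe sets that can match several transcripts are left out.

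TNC, tenascin-C, a large hexameric matrix protein of embryonic tissue and gliomas, was higher in U87MG on both of its probe sets. Probe set 216005_at read 4.36, 4.51 and 4.41 in T98G and 8.23, 8.47 and 8.23 in U87MG, a difference of 3.89 (SE 0.11, 3.64 to 4.13), or 14.8-fold. Probe set 201645_at read 9.07, 10.33 and 10.18 in T98G and 12.95, 13.49 and 13.05 in U87MG. T98G replicate 1 was the low array here, so the T98G SD of 0.69 was wider than on any other of the 20 probe sets. On 216005_at it was also the lowest T98G array, but the T98G SD was 0.08. All T98G arrays read near the bottom of the scale there, and whether that hid a low array was not tested. The difference on 201645_at was 3.30 (SE 0.31), or 9.86-fold, and 2.91 without T98G replicate 1.

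POSTN, periostin, an integrin ligand of fibroblasts and tumour stroma, was lower in U87MG on 1 of its 2 probe sets. Probe set 210809_s_at read 8.61, 9.08 and 9.08 in T98G and 4.37, 4.48 and 4.85 in U87MG, a difference of -4.36 (SE 0.17, -4.75 to -3.97), or 20.5-fold. The other, 214981_at, read under 4.03 on all 6 arrays, between 3.21 and 3.49, and so gave no information on a difference. As for THBS1, the call rested on a probe set ending in _s_at. Among the 20 probe sets 10 had that ending, 1 of them called higher and 5 lower, while of the other 10, 3 were called higher and 0 lower by limma.

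**Figure D3:**
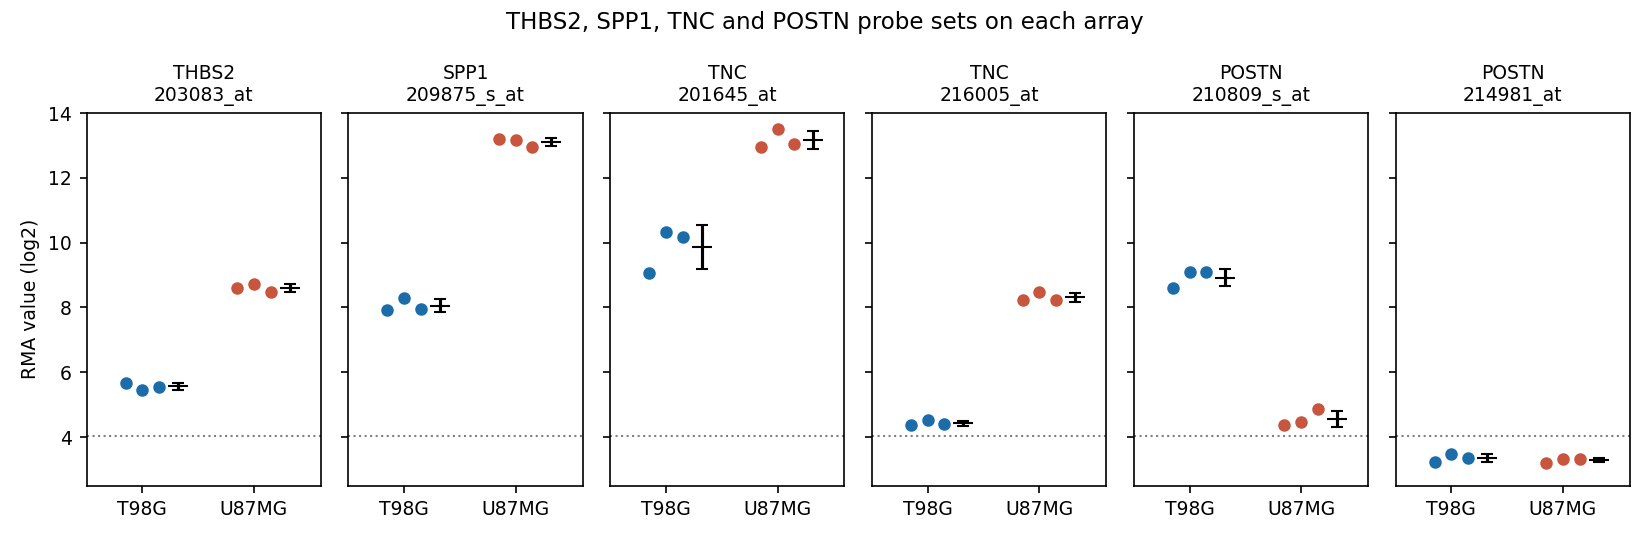
Log2 RMA values (vertical axis) of the THBS2, SPP1, TNC and POSTN probe sets on the 3 T98G and 3 U87MG arrays, 1 point per array, with the mean and SD beside each group and a dotted line at 4.03, the highest control without a matching transcript. U87MG lies above T98G for THBS2, SPP1 and both TNC probe sets and below it for POSTN 210809_s_at, while POSTN 214981_at lies under the line on every array.

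SPARC, a collagen-binding glycoprotein that loosens cell adhesion, read high in both lines and fell just short of the 2-fold minimum. Probe set 200665_s_at read 13.17, 13.18 and 13.29 in T98G and 12.25, 12.50 and 12.11 in U87MG, which did not overlap. The difference was -0.93 (SE 0.12, -1.20 to -0.66), or 1.90-fold lower in U87MG, and it passed 2-fold when U87MG replicate 2 was left out (-1.03). Probe set 212667_at read 12.01, 12.03 and 12.25 in T98G and 11.73, 12.03 and 11.59 in U87MG, where U87MG replicate 2 overlapped T98G, at -0.31 (SE 0.14).

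CD47, the receptor for THBS1 and the signal against phagocytosis, differed by less than 2-fold on all 4 of its probe sets, with every U87MG array below every T98G array on 3 of them. Probe set 211075_s_at read 13.04, 12.72 and 13.08 in T98G and 12.44, 12.45 and 12.53 in U87MG, a difference of -0.48 (-0.75 to -0.21). Probe set 213857_s_at gave -0.51 (-0.80 to -0.22), from 12.56, 12.18 and 12.48 in T98G and 11.91, 12.02 and 11.77 in U87MG. Probe set 213856_at read 5.57, 5.58 and 5.73 in T98G and 4.89, 4.87 and 4.45 in U87MG, at -0.89 (-1.20 to -0.58). On 213055_at the lines overlapped, with means of 7.94 ± 0.01 and 7.91 ± 0.25 and a difference of -0.03 (-0.33 to 0.28). By these estimates CD47 differed by up to 1.85-fold, on 213856_at, whose interval reached beyond 2-fold. Its ligand THBS1 differed by 1.58-fold to 236-fold, depending on the probe set.

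Genes with an array pattern most like that of the extreme probe sets were found by the root mean square distance between log2 values centred on their mean over the 6 arrays. For THBS1 201109_s_at the nearest 5 genes were IGFBP5 (distance 0.46), TNFRSF11B (0.55), GSTM3 (0.62), PDGFD (0.80) and COLEC12 (0.81), with differences of -8.64, -6.83, -6.81, -6.44 and -6.31. For SPP1 they were EFNB2 (0.10), STEAP1B (0.12), IL13RA2 (0.15), NDP (0.17) and SIGLEC15 (0.18), with differences of 5.03, 4.98, 5.24, 4.82 and 5.06. With 2 lines, the distance is set mostly by the size of the difference.

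The receptors, relatives, enzymes and matrix partners of these proteins were taken from 7 lists, in which each gene counts once by its probe set with the highest mean. The lists too were chosen with earlier results of this comparison known. Their counts and adjusted p-values below are therefore a description. Of 111 measured genes other than the 10 described above, 14 were called higher in U87MG, 24 lower and 73 neither. Over all 11963 genes counted the same way 6.56% were called higher and 7.01% lower, 13.6% in all, and the median difference was -0.01. Of 18 receptors and partners of thrombospondins, CD47 included, 2 were higher and 3 lower (median -0.08). The integrin chain ITGB3, which pairs with ITGAV into a receptor for THBS1 and osteopontin, was 4.17-fold higher (6.97 ± 0.55 in T98G, 9.03 ± 0.37 in U87MG, limma adjusted p = 0.00036), on 4 of 7 probe sets. The scavenger receptor LRP1 was 3.15-fold higher. The integrin chains ITGA4 and ITGA6 were lower by 10.2-fold (8.90 ± 0.09 against 5.54 ± 0.07, limma adjusted p = 3.67e-08) and 4.55-fold, on all their probe sets. The lipoprotein receptor SCARB1 was lower by 2.28-fold on 1 of 3 probe sets. ITGAV itself had -0.45 and its partner ITGB1 0.52, and SIRPA, the phagocyte receptor for CD47, had -0.58, all short of 2-fold. CD36, the receptor through which THBS1 acts on endothelium, read 4.42 ± 0.02 and 4.33 ± 0.03, near the bottom of the scale in both lines.

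Of 15 receptors of osteopontin, tenascin-C, periostin and SPARC, 2 were higher and 3 lower (median -0.06). Besides ITGB3, the fibronectin receptor chain ITGA5 was 4.17-fold higher in U87MG (9.74 ± 0.12 in T98G, 11.81 ± 0.07 in U87MG, limma adjusted p = 7.15e-07). The integrin chain ITGA8 was 6.45-fold lower (7.69 ± 0.32 against 5.00 ± 0.20), the heparan sulphate proteoglycan GPC1 2.60-fold lower on 1 of 2 probe sets, and ITGB8, whose integrin activates latent TGF-beta, 2.26-fold lower. CD44, the hyaluronan receptor that also binds osteopontin, read 13.93 ± 0.06 and 13.68 ± 0.14, with 8 probe sets from -1.45 to -0.23 of which 1 was called lower. PTPRZ1, a phosphatase that binds tenascin-C, read 3.22 in both lines, under the highest control.

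Among 19 other matricellular genes 1 was higher and 5 were lower (median -0.09). CCN1, CCN2 and CCN4, of the CCN family of cysteine-rich integrin ligands, were lower in U87MG by 5.69-fold (13.45 ± 0.03 against 10.94 ± 0.32), 3.16-fold and 5.50-fold, while CCN3 of the same family was 4.38-fold higher (8.35 ± 0.12 against 10.48 ± 0.28, limma adjusted p = 5.98e-06). Of the other family members, CCN5 had 0.12 with overlapping arrays, and CCN6 read under 4.03 on 5 of 6 arrays, neither called. MGP, an inhibitor of calcification, was 3.45-fold lower, and SPOCK1, a SPARC relative, sat at the minimum with 2.00-fold (adjusted p = 0.000232 by limma). TGFBI, a relative of periostin, read 14.50 ± 0.06 and 14.42 ± 0.13, and LGALS3 12.36 ± 0.02 and 12.27 ± 0.23, neither called.

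Of 18 genes that share thrombospondin repeats, 2 were higher and 1 was lower (median 0.01). The metalloproteinase genes ADAMTS1, whose product can cleave thrombospondins, and ADAMTS5 were higher by 6.25-fold (9.21 ± 0.27 in T98G, 11.85 ± 0.44 in U87MG) and 7.15-fold, and ADAMTS2, a procollagen peptidase, was 3.59-fold lower on 1 of 2 probe sets. Enzymes chosen as modifiers or proteases of these proteins had 5 higher and 0 lower of 17 by limma (median 0.20), with 7 higher and 2 lower at an unadjusted p under 0.05. Besides ADAMTS1 and ADAMTS5, the higher genes were the cathepsins CTSK, at 26.4-fold (6.83 ± 0.10 against 11.56 ± 0.03, limma adjusted p = 7.55e-09), and CTSL, at 3.22-fold, and the stromelysin MMP3, at 5.12-fold. CTSK, CTSL and ADAMTS1 each had a single probe set, ending in _s_at, and without such probe sets the count of higher enzymes went from 5 to 2. POFUT2, which adds fucose to thrombospondin repeats, had -0.56, and MMP2, a gelatinase, 0.16.

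Matrix proteins that these genes' products bind had 3 higher and 8 lower of 20 (median -0.59). Lower in U87MG were COL3A1, of fibrillar collagen III, by 37.3-fold (10.01 ± 0.57 against 4.79 ± 0.45, on 3 of 4 probe sets), the basement membrane collagens COL4A1 and COL4A2 by 31.0-fold and 13.6-fold, COL5A1, COL5A2, the collagen chaperone SERPINH1, the basement membrane proteoglycan HSPG2 (1 of 2 probe sets) and the matrix glycoprotein FBLN1 (3 of 5). Higher were COL1A1, by 14.9-fold, with 2 of 4 probe sets called, the proteoglycan VCAN by 5.32-fold on all 5 probe sets, and LUM, by at least 2.93-fold with T98G arrays under 4.03 set to 4.03. Of 15 genes known to respond to TGF-beta, 3 were higher and 5 lower (median -0.07). TGFB2, a TGF-beta ligand, was 20.0-fold lower (10.16 ± 0.19 against 5.84 ± 0.22, on 3 of 4 probe sets), and its target PMEPA1 9.77-fold lower, with CCN2, SKIL and TAGLN also lower, although the lines' arrays overlapped for TAGLN. The smooth muscle actin gene ACTA2 was 8.38-fold higher on 1 of 2 probe sets, and COL1A1 and LTBP2 were also higher.

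**Figure D4:**
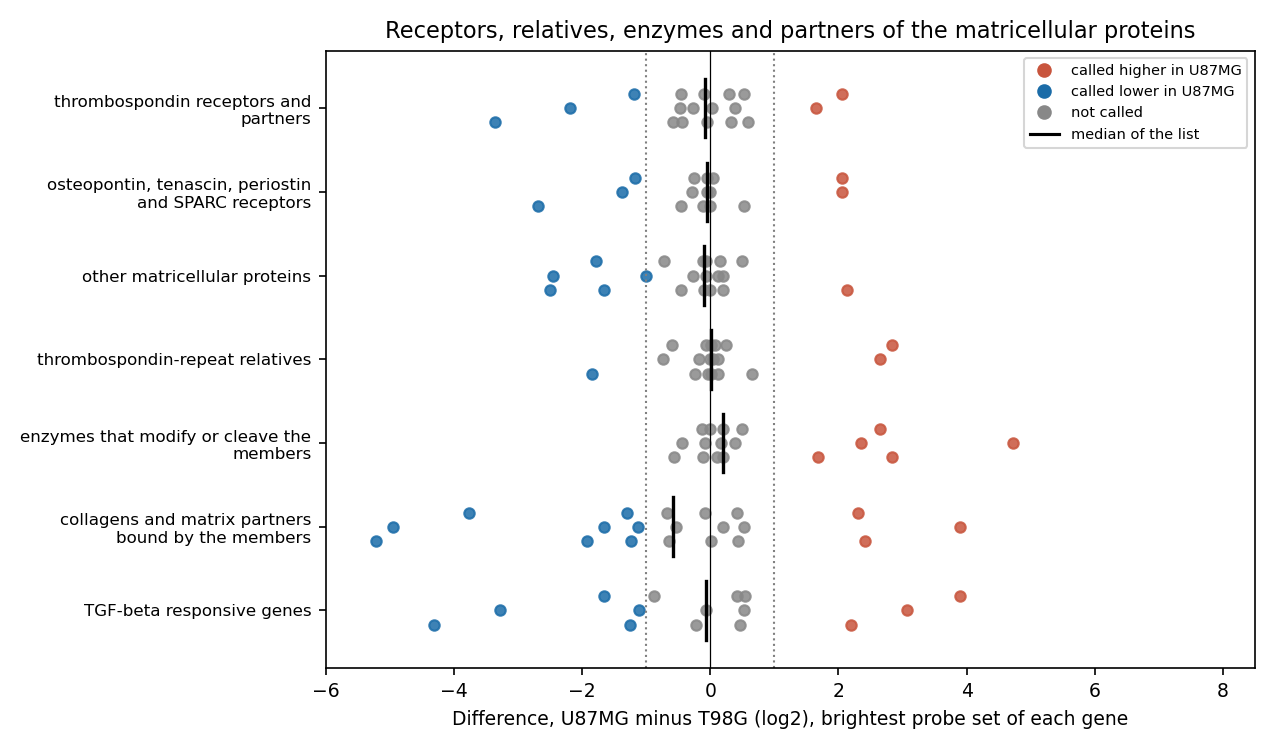
Difference between U87MG and T98G (log2, horizontal axis) of each measured gene, by its brightest probe set, in 7 lists related to the matricellular proteins; points are genes, coloured by call, black bars are list medians and dotted lines mark 2-fold. Calls lie on both sides in 6 lists, and the enzyme list has 5 genes called higher and 0 lower.

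Markers of other cell types were set beside these values. The fibroblast and pericyte list had 1 gene higher (LUM) and 2 lower (COL3A1 and PDGFRB) of 6, and its summed log2 level was 44.8 to 46.2 in T98G and 38.4 to 40.7 in U87MG, the same direction as THBS1 and POSTN. Most of that difference came from COL3A1 (-5.22) and PDGFRB (-3.18), and FAP had -0.58, whereas LUM, DCN (0.43) and RGS5 (0.11) were on the other side, so the 6 markers did not move together. Their part in the results was not tested. Of 6 endothelial markers only the receptor gene KDR was called, higher, and the list summed to 31.9 to 32.7 in T98G and 34.8 to 36.5 in U87MG, with the defining cadherin CDH5 at 4.03 ± 0.10 and 3.95 ± 0.10, at the bottom of the scale. Of 6 macrophage and microglia markers CSF1R was called higher, at 2.02-fold, with sums of 34.7 to 35.2 and 35.2 to 37.1, and the leukocyte gene PTPRC read 4.33 ± 0.12 and 4.55 ± 0.36. Of 5 platelet markers limma called 0, and 0 had an unadjusted p under 0.05, with sums of 30.0 to 30.5 and 29.6 to 30.5. The astrocyte and glioma list summed to 71.5 to 73.0 in T98G and 70.5 to 70.6 in U87MG.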

How the data were processed

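The submitters' processing notes list RMA and limma; versions are not given in the sources used here. The deposited log2 values were taken as they stood, and since RMA removes background and equalises arrays, differences of dim transcripts can be compressed. Array medians lay between 7.55 and 7.65. Of 22277 probe sets 62 controls were left out. Names came from the platform annotation of 2016, with symbols updated through the RefSeq gene table of GRCh38.p14 (19052 of 19064 probe sets with 1 gene).

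U87MG was compared with T98G by limma's moderated test, two-sided, in version 3.58.1 under R 4.3.3, and p-values were adjusted (Benjamini-Hochberg) over the 22215 probe sets. List genes count by their brightest probe set. The members and lists were chosen with earlier results of these data known. Named were all member probe sets, up to 2 called genes per list and direction, other called genes where a count was small, and the 5 nearest genes to each extreme member; other list genes were named after their values were seen. On simulated data for this comparison, all 100 probe sets given a log2 change of 1.5, and all 100 given one of -3, came out as called among 22215. The simulated noise was normal and independent between arrays, and both changes exceeded the fold minimum. It therefore checks the calculation and not the reliability of the calls. The main fit did not pair the samples by replicate number. Deviations from the line means correlated weakly between same-numbered arrays (0.153, 0.0763 and 0.0813), but all 6 arrays correlated best with the same number of the other line. A structure shared by number is thus possible, and the labels do not say what the numbers stand for. The number of arrays limits the precision. List genes without a probe set of their own are not analysed here.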

Additional observations from a re-analysis of the deposited data

How the results depend on the processing

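Over 15 alternatives no called matricellular probe set lost its call or turned its direction where it was measured. Of 285 values, 275 kept sign and call, 7 newly passed and 3 turned sign, all uncalled. The 3 were COMP without U87MG replicate 2 (-0.0387 to 0.1246 when each array was left out), and CD47 213055_at after renewed quantile normalization (0.0053) and without U87MG replicate 1 (-0.1393 to 0.1103 over arrays left out). Filters, cut-offs, treat, the variance options and the replicate block cannot change a difference, so there only the call could move. The 7 passed because the fold minimum was dropped, except SPARC 200665_s_at without U87MG replicate 2. Without multiply matching probe sets (_s_at, _x_at, _a_at), which left 10 of the 20, lower calls went from 5 to 0 probe sets and from 2 to 0 genes, higher calls from 4 to 3 probe sets and from 3 to 2 genes (SPP1 was left out), related genes to 6 higher and 15 lower, and all probe sets to 681 higher and 708 lower, fewer being tested. By list, higher calls went from 2 to 0 for thrombospondin receptors, 2 to 1 for receptors of the other ligands, 2 to 1 for repeat relatives, 5 to 2 for enzymes and 3 to 0 for matrix partners, and lower calls from 1 to 0 for repeat relatives, 8 to 5 for matrix partners and 5 to 2 for TGF-beta responsive genes. With no fold minimum there were 10 lower matricellular probe sets, 4 lower genes, 24 and 36 related genes and 3963 and 4382 probe sets; limma's treat gave 675 and 661 probe sets and 11 lower related genes. Leaving out each array gave 5 to 6 lower and 4 higher matricellular probe sets. The replicate block pairs arrays by number, and all 6 correlated best with the same number of the other line. With this block 4 higher and 5 lower were left, with 1320 and 1409 over all. The filter on dim probe sets kept 15 of the 20 and 8 of the 10 genes. Values near the bottom of the scale limit the folds of THBS1 and POSTN in U87MG and of TNC 216005_at in T98G.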
